A study of Mus musculus with 6 samples.

Results

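Accessible chromatin peaks of regulatory T cells (Treg cells) that stood next to, but not on, a peak of the other genotype are described here. The members were chosen by the position of the peaks alone: a peak of one list entered when it overlapped no peak of the other list and had 1 to 500 bp of DNA between its edge and the edge of the nearest such peak, on chromosomes 1 to 19. This rule found 4616 members among 72656 peaks, of which 2152 came from the WT list of 37249 peaks and 2464 from the KO list of 35407 peaks. Since overlap and distance chose the members, their number and their gaps are a description and were not tested. Peaks without an overlap in the other list are called list-specific below, and made up 29.2% of the WT peaks and 25.5% of the KO peaks.

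Chromatin accessibility had been measured by ATAC-seq, in which the Tn5 transposase cuts and tags DNA that nucleosomes leave free. The 6 samples were CD4+YFP+ cells sorted from spleen and draining lymph nodes of C57BL/6 mice, 3 samples of the genotype Bcl11b w/w Foxp3-IRES-YFP-Cre (WT) and 3 of the genotype Bcl11b f/f Foxp3-IRES-YFP-Cre (KO, Bcl11b deficient per the labels). Both groups carried the Cre recombinase and the YFP reporter in the Foxp3 gene, so deletion of the floxed Bcl11b alleles was driven in cells that express Foxp3, and cells of both groups were gated on that expression. No age or sex of the mice was used here. Each group had 1 peak list for its 3 samples, so there was no value per sample, the depth is unknown, and none of the differences below has a replicate check. Ranges after shares are exact Clopper-Pearson 95% intervals. They cover the counting error alone and treat peaks as independent.

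Bcl11b is a zinc-finger transcription factor of the T cell lineage that binds DNA and recruits chromatin-modifying complexes. An ATAC-seq peak usually marks a nucleosome-free stretch at a promoter or an enhancer, flanked by positioned nucleosomes, and a promoter or a strong enhancer often holds several such stretches side by side. A peak caller that writes peaks of a fixed width places each of them on a local maximum of the reads. The lists hold such positions and no read signal.

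The width was 219 bp for 37240 of the WT peaks and 193 bp for 35401 of the KO peaks on chromosomes 1 to 19. Gene-end peaks, whose midpoint lies up to 1 kb from the start or the end of a protein-coding gene, were present in both lists at Il2ra (the IL-2 receptor alpha chain), Ctla4 (an inhibitory receptor) and Cd3e (a chain of the T cell receptor complex). They were found at 18 and 23 of 24 T cell identity genes in the WT and KO lists, at 2 and 3 of 10 B cell genes and at 6 and 6 of 13 myeloid genes. Of single markers of CD8 T, B, myeloid and red cells, Cd8a, Ms4a1, Cd79a, Lyz2 and Hbb-bs had no peak of either list in the gene or within 1 kb of it. Cd8b1, the CD8 beta chain, had 1 gene-end peak in each list, and Pax5, a B cell factor, had 2 WT and 4 KO peaks. Cd4, a marker of the sort, had 0 WT and 1 KO gene-end peaks. Epcam, an epithelial adhesion gene, had 1 WT and 2 KO gene-end peaks. The part of other cells in the members was not tested. Foxp3 itself lies on the X chromosome, outside the chromosomes of the rule, and had 1 peak inside the gene in each list.

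Promoter sequence shows what lay between the peaks of a pair, that is, a WT member and a KO member up to 500 bp apart. The windows below are from RefSeq (GRCm38.p6, the coordinates of mm10), end no later than the base before the annotated start site, leave out bases inside any protein-coding gene, and are shown because a pair of a named gene falls on them. They are written 5′ to 3′ on the strand of the gene, and capitals mark the bases that neither peak covered.

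Mon1b, chr8:113635336-113635585, plus strand, with the KO peak upstream and the WT peak downstream of the capitals: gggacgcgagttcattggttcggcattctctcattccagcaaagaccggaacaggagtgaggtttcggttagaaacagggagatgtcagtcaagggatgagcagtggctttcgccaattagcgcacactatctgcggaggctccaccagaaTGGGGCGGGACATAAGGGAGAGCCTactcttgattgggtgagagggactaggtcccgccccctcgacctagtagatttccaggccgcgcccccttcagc

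Zranb3, chr1:128103054-128103281, minus strand, with the KO peak upstream and the WT peak downstream of the capitals: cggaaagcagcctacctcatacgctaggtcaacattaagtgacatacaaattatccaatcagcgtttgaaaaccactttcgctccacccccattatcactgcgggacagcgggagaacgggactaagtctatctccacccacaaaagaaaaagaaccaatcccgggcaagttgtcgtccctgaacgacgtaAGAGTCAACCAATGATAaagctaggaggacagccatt

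Vim, chr2:13574061-13574310, plus strand, with the WT peak upstream and the KO peak downstream of the capitals: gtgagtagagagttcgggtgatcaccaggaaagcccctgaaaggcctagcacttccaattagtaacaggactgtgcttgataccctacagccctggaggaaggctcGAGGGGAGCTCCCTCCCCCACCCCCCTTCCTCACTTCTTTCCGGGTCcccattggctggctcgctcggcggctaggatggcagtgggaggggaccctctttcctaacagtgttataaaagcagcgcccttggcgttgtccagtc

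Prf1, chr10:61297586-61297750, plus strand, with a WT peak ending before the window and a KO peak after the capitals: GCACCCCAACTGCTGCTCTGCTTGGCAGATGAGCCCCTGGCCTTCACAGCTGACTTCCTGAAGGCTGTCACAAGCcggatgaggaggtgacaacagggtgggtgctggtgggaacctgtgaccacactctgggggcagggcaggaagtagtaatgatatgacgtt

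Mon1b encodes a factor of endosome maturation, and its pair was the first of all pairs in row order. The uncovered stretch of 25 bp spanned bases -99 to -75 from the start site, and of the 250 bases shown the KO peak covered 151 and the WT peak 74. The Zranb3 window is a divergent promoter that Zranb3, which encodes an annealing helicase of replication forks, shares with R3hdm1 on the other strand. Its uncovered stretch of 17 bp lay at bases -43 to -27 from the Zranb3 start. Vim encodes vimentin, an intermediate filament protein, and the 47 uncovered bases of its window lay at -144 to -98. Prf1 encodes perforin, the pore-forming protein of cytotoxic cells. There the gap was 110 bp long, and 75 bases of it, from -250 to -176, fall in the window. GC content was 56.8% for Mon1b, 47.8% for Zranb3, 58.4% for Vim and 58.2% for Prf1, so the windows did not share one base composition.

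Gaps of members were short. The median was 74.5 bp in the WT list (middle 50% of members, 31 to 186 bp) and 93 bp in the KO list (36 to 256 bp). Among WT members 812 had a gap of 1 to 50 bp, 457 of 51 to 100 bp, 255 of 101 to 150 bp and 127 of 151 to 200 bp. The number then stayed between 69 and 104 per 50 bp up to the limit. KO members followed the same course, with 816, 472, 272 and 150 in the first bins and between 106 and 144 per 50 bp from 201 to 500 bp. In both lists the numbers thus fell steeply to about 200 bp and were nearly level beyond it.

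**Figure D1:**
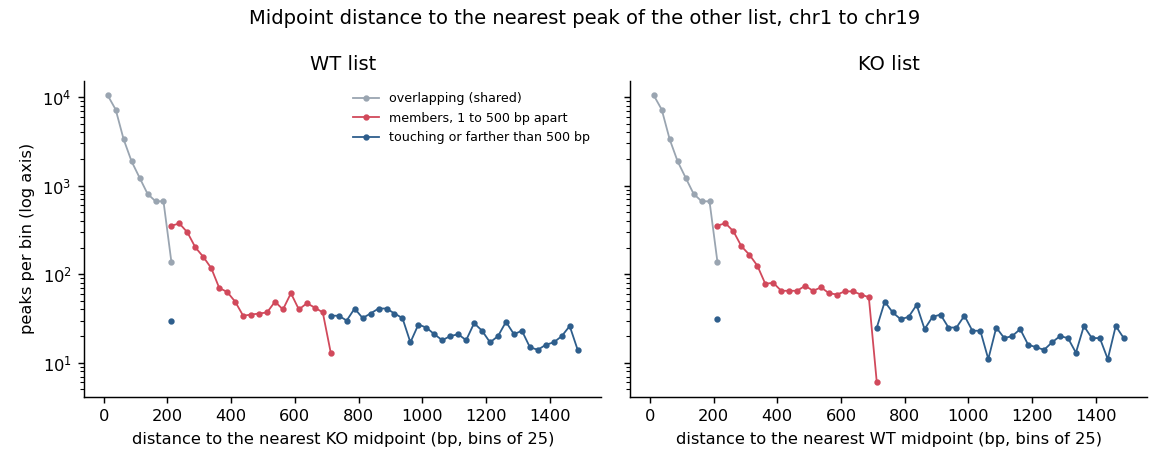
Number of peaks (log axis) by distance in bp from the midpoint to the nearest midpoint of the other list, in bins of 25 bp, for the WT list (left) and the KO list (right), split into overlapping peaks, members and the remaining list-specific peaks. Members take up the fall of the curve of overlapping peaks where that curve ends, and the curve flattens among members.

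The limit of 500 bp did not fall at a break in the data. With a gap of 451 to 500 bp there were 78 WT and 106 KO members, and with a gap of 501 to 550 bp there were 78 and 93 list-specific peaks just outside. The first WT member in row order with a gap of 500 bp lay inside Arid5b on chromosome 10 (68192207 to 68192425), and the first such KO member lay at a gene end of Dock2, a gene of lymphocyte migration, on chromosome 11 (34783749 to 34783941). The first peaks outside, with a gap of 501 bp, were a WT peak (46015075 to 46015293) and a KO peak (46014381 to 46014573) of chromosome 9, which faced each other inside Sik3, a salt-inducible kinase gene. A further 30 WT and 31 KO peaks touched a peak of the other list with 0 bases between and are not members.

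Most members came as pairs. The lists held 1893 pairs, made of 1845 WT members (85.7% of them, 84.2 to 87.2%) and 1860 KO members (75.5%, 73.7 to 77.2%). In 1736 pairs (91.7%, 90.4 to 92.9%) neither peak had a second partner, while 46 WT members had 2 KO partners and 33 KO members had 2 WT partners. The gap of pairs had a median of 61 bp, with 813 pairs (42.9%) at 1 to 50 bp and 1541 (81.4%) at 1 to 150 bp. The KO peak lay at the higher coordinate in 945 pairs (49.9%, 47.6 to 52.2%), so neither side was preferred.

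The remaining 307 WT and 604 KO members, called unpaired here, had as neighbours only peaks that were shared with another peak of the member's own list. Each of them therefore stood beside a peak of its own list that overlapped its neighbour. Their gaps were long: 292 of 307 WT (95.1%, 92.1 to 97.2%) and 488 of 604 KO unpaired members (80.8%, 77.4 to 83.9%) lay 251 to 500 bp from the neighbour, against 140 of 1845 (7.59%) and 141 of 1860 (7.58%) paired ones. The nearly level part of the distribution of gaps was thus made up largely of unpaired members, and the steep part of pairs. Leaving 1 overlap aside, neighbouring peaks of one list lay at least 195 bp (WT) or 171 bp (KO) apart. Gaps of 1 to 150 bp were found for 1 of 307 WT and 28 of 604 KO unpaired members, the smallest being 123 and 8 bp. The contrast with pairs is a description, and neither it nor the part of the spacing within a list was tested. From an unpaired member to the peak of its own list that overlapped its neighbour the median gap was 382 bp in the WT list and 362 bp in the KO list.

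**Figure D2:**
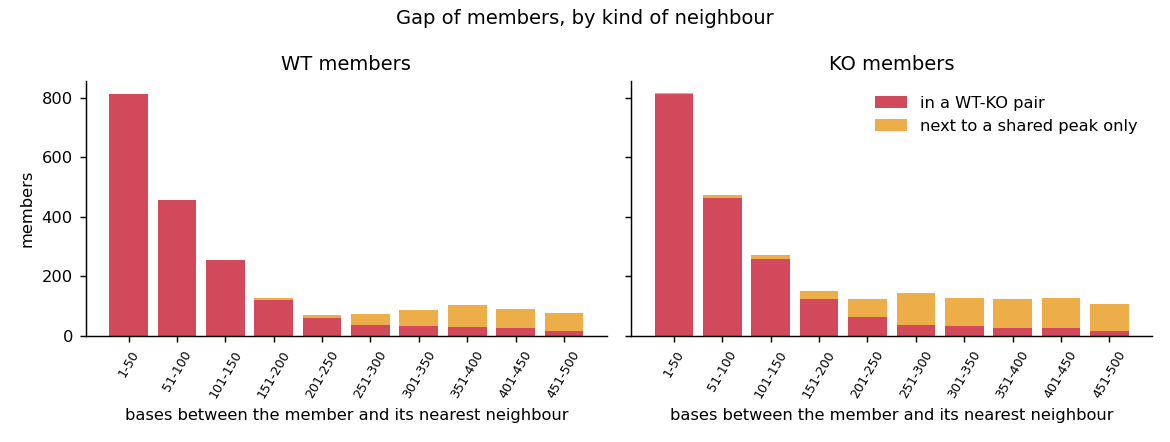
Number of members by bases between the member and its nearest neighbour, in bins of 50 bp, for the WT list (left) and the KO list (right), with members in a pair and unpaired members stacked. Pairs make up most of the bins up to 200 bp, and unpaired members, 307 in the WT and 604 in the KO list, most of those beyond 250 bp.

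Members made up 19.8% of the WT list-specific peaks (19.03 to 20.5%) and 27.3% of the KO list-specific peaks (26.3 to 28.2%). Of all peaks they were 5.78% in the WT list and 6.96% in the KO list. A second, non-overlapping neighbour of the other list at 1 to 500 bp was also present at 5.74% of shared WT peaks (5.46 to 6.03%). For shared KO peaks this share was 4.60% (4.35 to 4.86%). Most of the surplus of KO over WT members lay in the unpaired ones, with 604 KO against 307 WT members, while 1860 KO and 1845 WT members were in pairs. The order of the lists was the other way in the first 50% of each list, where members were 49.4% of the WT and 44.99% of the KO list-specific peaks. Spacing within a list differed as well: the smallest gap between neighbouring peaks of one list was 195 bp in the WT list and 171 bp in the KO list, where 1 overlap within the list was left aside. Gaps of up to 250 bp within a list numbered 35 among WT peaks and 100 among KO peaks, and those of up to 500 bp 937 and 1139. The part of this spacing in the surplus of unpaired KO members was not tested.

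Members stood earlier in the lists than other list-specific peaks. The score column of the lists is 1 throughout, so the row order, which the labels do not explain, was used as the place of a peak. It is given as a percentile, with 0 for the first row. Ranking by the number in the peak names, within each chromosome, gave medians of 54.5 for WT and 56.7 for KO members, close to those by row. The names come from the same lists, so this does not show what the order means. The median percentile of WT members was 54.4 (95% interval of the median from order statistics, 52.6 to 55.7), against 80.3 for list-specific WT peaks farther than 500 bp from any KO peak and 38.2 for shared WT peaks. For KO members it was 56.9 (55.1 to 58.6), against 77.5 and 42.0. Members thus stood between the other 2 classes in both lists.

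At the top of the lists most list-specific peaks were members. In the first 10% of the WT list 127 peaks were list-specific and 122 of them were members (96.1%, 91.1 to 98.7%), and in the last 10% 163 of 2579 were (6.32%, 5.41 to 7.33%). In the KO list the same shares were 115 of 147 (78.2%, 70.7 to 84.6%) and 247 of 1953 (12.6%, 11.2 to 14.2%). Only 2 of the 8700 WT peaks without a KO peak within 500 bp were in the first 10% of the list, and 29 of the 6544 such KO peaks.

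**Figure D3:**
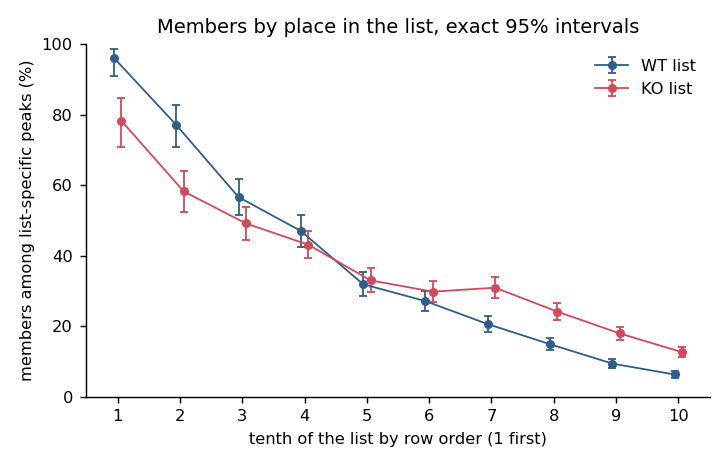
Members as a percentage of list-specific peaks in each 10% of the list by row order, with exact 95% intervals, for the WT and KO lists. The share falls from 96.1% to 6.32% along the WT list and from 78.2% to 12.6% along the KO list.

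The peaks of a pair held similar places in their lists. Across the 1893 pairs the Spearman rank correlation of the row percentiles was 0.81, against 0.88 across the 26368 overlapping WT and KO partners. These are descriptions across sites, with no test, and both lists come from the same processing. The median absolute difference was 9.60 percentile points in pairs and 7.51 in overlapping partners. At gene ends the correlation was 0.91 over 589 pairs, in gene bodies 0.71 over 671 and between genes 0.68 over 585. It was 0.84 for the 813 pairs with a gap of 1 to 50 bp and 0.65 for the 158 with a gap of 251 to 500 bp. The WT peak stood earlier in 1232 pairs (65.1%, 62.9 to 67.2%), with a median difference of 4.51 points, and in 16289 of the 26368 overlapping partners (61.8%, 61.2 to 62.4%). Both peaks stood in the first 50% of their lists in 674 pairs and in the first 10% in 79.

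**Figure D4:**
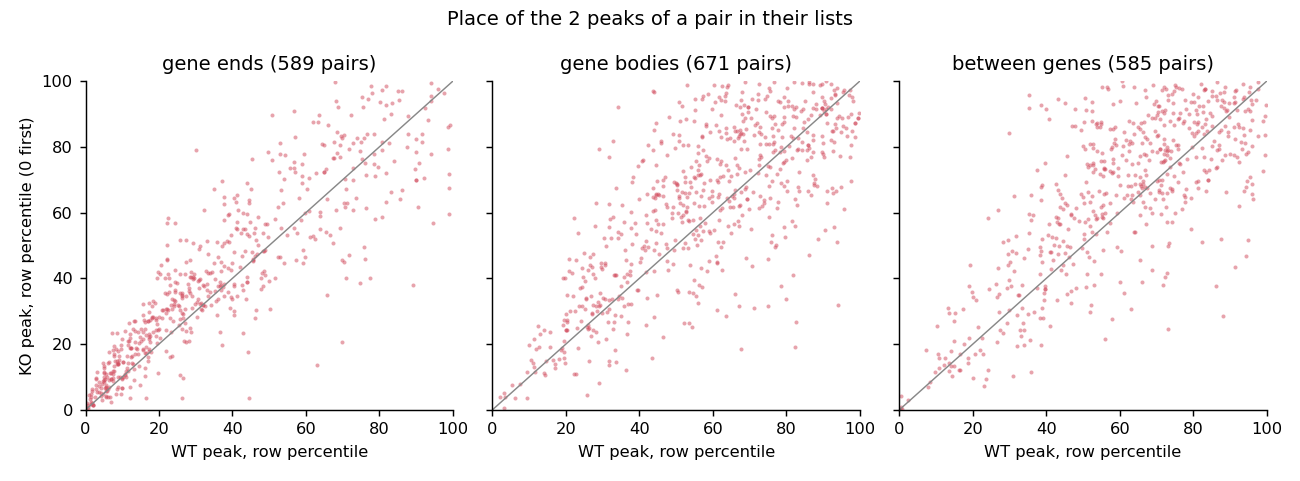
Row percentile of the KO peak against that of the WT peak for pairs with both peaks at a gene end (589), in a gene body (671) or between genes (585), where 0 is the first row and the line marks equal places. Points follow the line most closely at gene ends, and lie above it more often than below.

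Members lay where shared peaks lay. Gene ends held 33.3% of WT members (31.3 to 35.4%) and 35.3% of KO members (33.4 to 37.2%), against 34.6% of shared peaks in both lists. Of list-specific peaks farther than 500 bp from the other list, 8.09% (7.53 to 8.68%) of WT and 9.61% (8.91 to 10.4%) of KO peaks did. Gene bodies held 35.1% of the members of each list, against 49.9% and 47.5% of the farther WT and KO peaks. The space between genes held 31.6% of WT and 29.5% of KO members, against 42.1% and 42.9%. Unpaired members were at gene ends more often than paired ones, with 41.7% (36.1 to 47.4%) against 31.9% (29.8 to 34.1%) in the WT list and 44.7% (40.7 to 48.8%) against 32.3% (30.1 to 34.4%) in the KO list. Of all pairs, 1845 (97.5%) had both peaks in one location class, and 589 (31.1%) had both at a gene end.

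Since gene-end peaks crowd the top of both lists, location was also read within parts of the lists. In the first 20% of the WT list 71.1% of members (65.4 to 76.3%) and 66.8% of shared peaks were at gene ends, against 15 of the 46 farther list-specific peaks. In the middle 20% the shares were 25% of members (21.3 to 29.0%), 19.1% of shared and 12.1% of farther peaks (10.4 to 14.1%), and in the last 20% they were 18.1% (14.3 to 22.4%), 9.65% and 6.16%. In the KO list the order was the same throughout, from 66.7%, 64.7% and 15.0% in the first 20% to 14.5% (11.7 to 17.8%), 9.68% and 8.37% (7.41 to 9.42%) in the last. In each 20% of both lists the share was higher for members than for shared peaks, with overlapping intervals in the first 20%, and higher than for farther list-specific peaks.

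**Figure D5:**
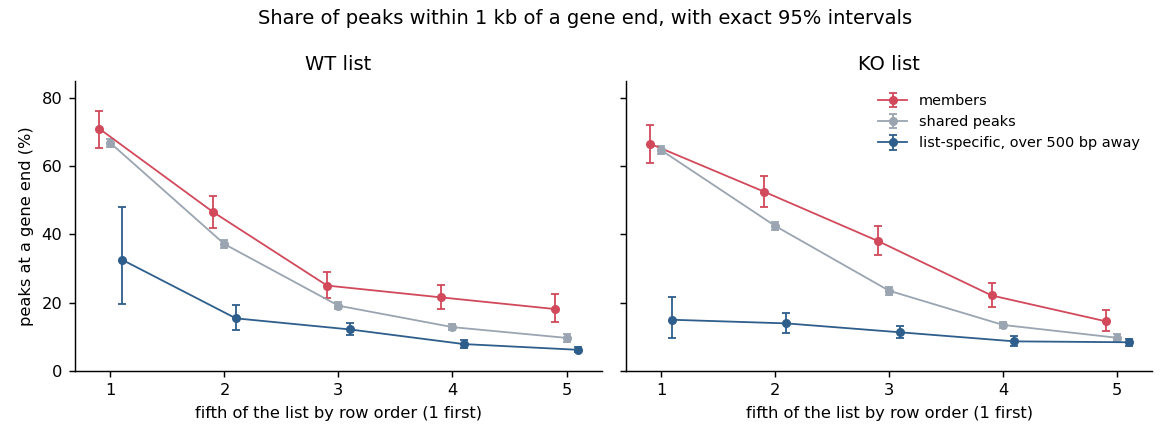
Percentage of peaks within 1 kb of an end of a protein-coding gene in each 20% of the list by row order, with exact 95% intervals, for members, shared peaks and list-specific peaks over 500 bp from the other list, in the WT (left) and KO (right) lists. Members run from 71.1% to 18.1% along the WT list and stay above the farther list-specific peaks throughout.

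Start sites were available from the RefSeq promoter table for chromosomes 1 to 17 and 19. Of the 1829 pairs there, 592 (32.4%, 30.2 to 34.6%) had the centre of the pair within 1 kb of a start site. In 349 of them (59.0%, 54.9 to 62.9%) the midpoints of the peaks lay on opposite sides of the start, which a peak may still cover. The KO peak lay downstream of the WT peak, in the sense of transcription, in 304 of 592 (51.4%, 47.2 to 55.4%) and nearer to the start in 325 (54.9%, 50.8 to 59.0%). Median positions were 58 bp downstream of the start for the WT peaks and 51 bp for the KO peaks. The medians of both lists thus lay downstream of the start, and neither list was displaced to one side of the other. The KO peak was nearer to the start slightly more often than the WT peak.

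Promoter windows of 300 bp, from 250 bases before to 50 after each start, were sorted by the peaks on them. Both peaks of a pair touched 301 of the 31396 windows, a further 422 held a member without its pair, and 8956 held shared peaks without a member. Median GC content was 62.7%, 63.5% and 62.0% in these 3 classes and 49% in the 21062 windows without a peak, and the median number of CpG dinucleotides was 24, 23, 23 and 4. Windows of pairs thus had the base composition of windows with shared peaks. The ETS sequence CCGGAAGT, on either strand, was in 6.64% of the pair windows (4.11 to 10.1%), 2.37% of the other member windows (1.14 to 4.31%), 11% of the shared ones (10.4 to 11.7%) and 3.95% of all windows. The E-box CACCTG, which E proteins and ZEB factors bind, was in 15.6% (11.7 to 20.2%), 21.8%, 17.2% and 20.5% of them. For the RUNX sequence TGTGGTT the shares were 3.99%, 4.27%, 3.65% and 5.32%, and for the AP-1 sequence TGANTCA 3.99%, 5.21%, 4.18% and 7.84%. The forkhead sequence TGTTTAC (1.33%, 2.84%, 2.33% and 3.71%), the CTCF core CCACNAGG (2.99%, 4.27%, 5.84% and 5.05%) and the STAT sequence TTCNNNGAA (6.64%, 7.82%, 6.64% and 8.35%) completed the set. Of these 7 sequences only the ETS and CTCF shares of pair windows lay below the shared ones with the interval of the pair windows excluding the shared value. Motifs were searched on both strands, windows of neighbouring starts overlap, and a match of letters is not a bound site.

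Members were spread over all chromosomes of the rule. Their share of list-specific peaks ran from 14.9% on chromosome 14 to 26.6% on chromosome 11 in the WT list and from 20.5% on chromosome 14 to 34.4% on chromosome 3 in the KO list. Further peaks 1 to 10 kb away, from either list, were near 51.7% of WT members (49.5 to 53.8%) and 51.9% of KO members (49.95 to 53.9%). The shares were 52.9% and 55.8% for farther list-specific peaks and 54.7% and 54.8% for shared peaks. Members thus had no more peaks at this distance than the other classes.

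A peak was assigned to the protein-coding gene whose body held its midpoint or, failing that, to the closest gene up to 100 kb away, and the gene it acts on is not known from this. By this rule 4410 members fell to 2321 genes of the 14056 with any peak, and 206 had no gene in reach. Exactly 1 WT and 1 KO member were found at 1261 genes, while 502 genes had KO members alone and 268 had WT members alone. At 945 of the 2321 genes no list-specific peak lay farther than 500 bp from the other list. At 398 genes a pair was present and no peak was shared, and at 231 the pair made up all peaks of the gene.

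Among the 10 genes with most members, ties being taken by row order, most were long genes with many peaks. Alg9, a glycosylation gene, had 7 members as well (4 WT and 3 KO, of 10 peaks) and came after them by the tie rule. Slc9a9, a sodium-proton exchanger gene of 561 kb on chromosome 9 (94669557 to 95230453), had 4 WT and 5 KO members in 3 pairs, among 15 shared WT peaks. Bach2 (chromosome 4, 32238413 to 32586109), which encodes a repressor of effector differentiation, had 4 WT and 4 KO members. They formed 4 pairs, while the KO member at 32250381 to 32250573 was unpaired. Beside them lay 22 shared WT peaks and 12 WT and 1 KO list-specific peaks without a neighbour. One KO peak there (32239502 to 32239694) stood between 2 WT members, with 187 bp to one side and 11 bp to the other. Tox, encoding a nuclear factor of T cell development and exhaustion, and Poc1b, a centriole gene, also had 4 WT and 4 KO members each. One pair of Tox lay at its gene end, with 254 bp between the WT peak (6991454 to 6991672 on chromosome 4, percentile 28.2) and the KO peak (6991007 to 6991199, percentile 36.03). Foxp1, a forkhead gene of T cell quiescence, had 3 WT and 4 KO members in 3 pairs. In its pair at 99172141 to 99172359 (WT) and 99171943 to 99172135 (KO) on chromosome 6, only 5 bp apart, the WT peak stood at percentile 22.2 and the KO peak at 58.2. The further genes of this group were Pde4d, a cAMP phosphodiesterase gene, Akap13, an anchoring protein and exchange factor gene, and Pip4k2a, a lipid kinase gene, each with 3 WT and 4 KO members.

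Vim and Rgs1 were the shortest of those 10 genes. Vim spans 8.52 kb and had 3 WT and 4 KO members in 4 pairs, 0 shared peaks and 1 further KO peak, so 7 of its 8 peaks were members. At its start the WT peak (13573948 to 13574166, percentile 7.65) stood between KO peaks at 13573622 to 13573814 (percentile 19.3) and 13574214 to 13574406 (percentile 16.9), with gaps of 133 and 47 bp. Rgs1, a regulator of G protein signalling high in Treg cells, spans 4.44 kb and had 4 WT and 3 KO members, all beyond the gene, beside 9 shared WT peaks. A KO peak at 144283498 to 144283690 on chromosome 1 (percentile 19.9) stood there between WT peaks 28 and 106 bp away (percentiles 33.9 and 38.6). Both genes thus held triplets in which a single peak of one list faced a peak of the other list on either side.

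The target gene Bcl11b had members, while Il2ra, Ctla4 and Ikzf2 had 0 and Il10 had 1. Foxp3 lies outside the chromosomes of the rule. Bcl11b (chromosome 12, 107910403 to 108004145) had 2 WT and 2 KO members in 2 pairs, 4 of its 22 peaks, where members made up 6.41% of the peaks over all genes. One lay in the gene body, with the WT peak at 107921258 to 107921476 (percentile 33.4), the KO peak at 107921560 to 107921752 (percentile 28.9) and 83 bp between. The other lay beyond the gene, at 108023267 to 108023485 (WT) and 108023057 to 108023249 (KO), with a gap of 17 bp. Beside them Bcl11b had 3 WT and 3 KO list-specific peaks without a neighbour and 6 shared WT peaks. Which exons the floxed alleles lose is not in the labels, and peaks cannot serve as a check of the knockout. Il2ra, Ctla4 and Ikzf2, which encodes Helios, had 0 members, with 2 and 2, 2 and 2, and 4 and 7 farther WT and KO list-specific peaks. Their shared WT peaks numbered 4, 11 and 10. The difference from Bcl11b was not tested. The list of Treg signature genes as a whole had 14 WT and 13 KO members, 7.96% of its 339 peaks (5.31 to 11.4%). Il10 had 1 unpaired WT member at 131038832 to 131039050 on chromosome 1, 337 bp from the neighbouring KO peak.

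The gene lists together had a smaller share of members among their list-specific peaks than all genes, 18.9% of 713 against 24.2% of 18196 (touching peaks left out). By this measure the share was 10.96% for helper cytokine programmes, 6 of 48 peaks for the cytotoxic, NK and innate lymphoid list and 8% of 50 peaks for chromatin regulators, and 27.6% for the Treg signature. It was 30.8% of 13 peaks for the myeloid list and 27.3% of 11 for the erythroid or non-lymphoid list. The remaining lists ran from 16.5% for T cell transcription factors to 23.6% for resting T cells and homing. Over all genes with a peak, members made up 6.41% of the assigned peaks (6.23 to 6.60%). The 232 genes of 13 lists on these chromosomes had 64 WT and 71 KO members in 56 pairs, 5.48% of their peaks (4.61 to 6.45%), at 52 genes. The share was 7.96% (5.31 to 11.4%) for the Treg signature and 6.38% (4.17 to 9.27%) for genes of resting T cells and homing. It was 5.44% for effector Treg genes, 6.51% for IL-2, STAT and cytokine signalling, 5.90% for T cell identity and 4.90% for T cell transcription factors. The cytotoxic, NK and innate lymphoid list had 4.35% (1.61 to 9.22%) and those of helper cytokine programmes 3.56% (1.55 to 6.89%). The lowest shares were 2.41% (0.660 to 6.05%) for chromatin regulators and 2.86% for housekeeping genes. B cell, myeloid and erythroid or non-lymphoid genes, which mark other cells, had 7.14%, 7.02% and 9.09% of few peaks. Each of these intervals over all peaks, except that of the chromatin regulators, includes the value over all genes.

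Within the Treg signature, 11 of 24 genes had a member, with 14 WT and 13 KO members in 12 pairs. Over all genes with a peak, 2321 of 14056 did. Peaks per gene differ, with 339 peaks at the 24 genes and 68768 at the 14056, so these gene counts are not comparable. Members were 7.96% of the 339 peaks, against 6.41% over all genes. Socs2, a feedback inhibitor of cytokine signalling, had 2 pairs and 0 shared peaks, one of them at its gene end, with the WT peak at 95417076 to 95417294 and the KO peak at 95416826 to 95417018 on chromosome 10, 57 bp apart (percentiles 31.3 and 39.9). Tnfrsf9, the costimulatory receptor 4-1BB, had 1 pair between genes, 96 bp apart, at percentiles 15.0 (WT) and 13.4 (KO). Gpr83, a G protein-coupled receptor gene of Treg cells, had a pair across its start: relative to the start, the midpoint of the KO peak (14859966 to 14860158 on chromosome 9) lay at -148.5 bp and that of the WT peak (14860197 to 14860415) at 95.5 bp. Their percentiles were 58.3 and 22.4, so the WT peak stood earlier in its list by more than the median difference of pairs.

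Among resting T cell genes 7 of 16 had members, which were 6.38% of their 392 peaks, against 6.41% over all genes. Bcl2, a survival gene, had 1 pair with a gap of 9 bp in its body (chromosome 1, 106688207 to 106688425 for WT and 106688005 to 106688197 for KO), at percentiles 55.0 and 91.2, and an unpaired KO member at its gene end. In effector Treg genes Prdm1, which encodes the factor Blimp-1, had 1 pair in its body with a gap of 106 bp (percentiles 29.3 for WT and 35.6 for KO). Maf, a factor of IL-10 expression, had 1 pair between genes, 108 bp apart, at percentiles 82.5 (WT) and 50.96 (KO). The KO peak thus stood earlier at Maf and the WT peak earlier at Prdm1 and Bcl2.

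Cytotoxic and innate lymphoid genes had members at 2 of 21 genes, Prf1 and Fasl. Members were 4.35% of the 138 peaks of this list (1.61 to 9.22%), against 6.41% over all genes. At Prf1 (chromosome 10, 61297751 to 61304684) the single WT peak, at 61297332 to 61297550 and percentile 89.9, stood between KO peaks at 61297078 to 61297270 and 61297661 to 61297853, both at percentile 69.9, with gaps of 61 and 110 bp. Relative to the start in the promoter table the KO midpoints lay at -662.5 and -79.5 bp and the WT midpoint at -395.5 bp. Prf1 had 1 further KO peak and 0 shared peaks, so 3 of its 4 peaks were members of one triplet. Fasl, the death ligand gene, had 1 pair between genes with a gap of 124 bp (percentiles 24.2 for WT and 12.04 for KO), an unpaired KO member and 15 shared WT peaks.

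Helper cytokine genes had 4 WT and 4 KO members. Ifng, the interferon gamma gene, had 1 pair beyond the gene with a gap of 92 bp, at percentiles 57.2 (WT) and 72.6 (KO). Stat4, a mediator of IL-12 signals, had 1 pair in its body, 169 bp apart, at percentiles 89.1 and 98.8. Runx3, a Runt factor of the CD8 T cell and Th1 programmes, had 1 unpaired KO member (135098083 to 135098275 on chromosome 4), 239 bp from a shared peak. Most list-specific peaks of Runx3, 2 WT and 5 KO, lay farther than 500 bp from the other list, as at Ifng with 4 and 3. This was so over all genes too, where members were 24.2% of list-specific peaks.

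T cell signalling and identity genes with members were Tox, Bcl11b and Cd247 among others. Cd247, the zeta chain of the T cell receptor complex, had 1 pair with a gap of 428 bp in its body, an unpaired WT member there and an unpaired KO member at its gene end. Jak1, a kinase of common gamma chain cytokine receptors, had 3 pairs with gaps of 25, 19 and 176 bp, and at 1 of them, the one in the gene body, the WT peak stood earlier (46.3 against 68.0). Smad3, a signal transducer of TGF-beta, had a pair just upstream of its start with a gap of 57 bp (63758010 to 63758228 for WT and 63758286 to 63758478 for KO on chromosome 9, percentiles 24.3 and 35.8). Il6ra, the IL-6 receptor alpha chain, had its pair across the start, 58 bp apart, with the KO midpoint at -80.5 bp and the WT midpoint at 183.5 bp (percentiles 64.8 and 37.6). The KO peak was thus the upstream one at Gpr83, Il6ra and Smad3, and the WT peak was at Tet2. At Prf1 and at the start of Vim a KO peak lay on either side of the WT peak. Over the 592 pairs near a start site the KO peak lay downstream in 51.4%, so these genes show no common side.

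Among transcription factors Myb, a factor of progenitor cells, had 2 pairs, 76 bp apart in the gene body and 118 bp apart beyond it, with the WT peak earlier in both (21.1 against 30.0 and 29.7 against 43.9). Nr4a1, an early response gene of T cell receptor signals, had 1 pair with a gap of 446 bp and an unpaired KO member, and Runx1 had 1 pair with a gap of 71 bp in its body. Members made up 2.41% of the 166 peaks of chromatin regulators, against 6.41% over all genes. Among these regulators only Tet2, which encodes a DNA dioxygenase that removes methylation, had members. Its gene-end pair (chromosome 3, 133544379 to 133544597 for WT and 133544131 to 133544323 for KO) stood at percentiles 8.01 and 14.8, with the WT midpoint at -97.5 bp and the KO midpoint at 163.5 bp from the start. Its second pair, beyond the gene, had a gap of 338 bp.

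Genes of the lists for other cells had few peaks, 28, 57 and 33 in the B cell, myeloid and erythroid or non-lymphoid lists. The intervals of their member shares were wide (0.877 to 23.5%, 1.95 to 17.0% and 1.92 to 24.3%) and include the 6.41% over all genes. Among list-specific peaks the shares were 20%, 30.8% and 27.3%, against 24.2% over all genes. Ebf1, a B cell factor, had 1 pair late in both lists (94.0 and 81.1), and Epcam, an epithelial adhesion gene, 1 pair at 94.4 and 67.7. Fcgr3, an Fc receptor of myeloid and NK cells, had a pair early in both lists (7.22 and 18.04, gap 57 bp, 171044741 to 171044959 for WT on chromosome 1), and Cebpa, a myeloid factor, 1 unpaired WT member with a gap of 500 bp.

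Pairs first in row order lay mostly at gene ends. Of the 10 leading pairs 7 had the WT peak at a gene end. This was near the share among early WT peaks, 71.1% of members and 66.8% of shared peaks in the first 20% of the list. The pair of Mon1b (chromosome 8, 113635512 to 113635730 for WT and 113635294 to 113635486 for KO) stood at percentiles 0.195 and 0.126, and that of Ubxn6, a cofactor of the p97 ATPase, at 0.765 and 0.142, with 43 bp between. The divergent promoter of Zranb3 and R3hdm1 followed at 0.785 and 0.947. Zfp78, a zinc-finger gene, had a pair 140 bp apart, Gm5165 one 7 bp apart, Mplkip one 8 bp apart and Usp5, a deubiquitinase gene, one 30 bp apart. Between genes lay the pairs nearest to Scaf8 (119 bp apart), Zfp958 (24 bp) and Foxj2 (137 bp), and the KO peak of the last of them was nearer to Slc2a3. A shortest gap of 1 bp was found at Med28, a Mediator subunit gene on chromosome 5 (45520255 to 45520473 for WT and 45520061 to 45520253 for KO, percentiles 6.999 and 9.50). The longest, 499 bp, lay inside Zbtb46 on chromosome 2, where the KO peak stood at percentile 31.7 and the WT peak at 75.03. Another pair 1 bp apart lay inside Akap13, at percentiles 20.1 (WT) and 24.4 (KO).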

How the data were processed

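ATAC-seq peaks of 3 WT and 3 KO samples were analysed from 1 deposited peak list per group. The submitters' processing notes name HOMER 4.10.1, deepTools, SAMtools 1.3, HISAT2 2.1.0, FastQC, cutadapt 1.12, Trim Galore 0.4.2 and build mm10. For the role of each tool, the peak threshold, any shift of reads and the joining of replicates, the entry is: not given in the sources used here. The score that the authors deposited is 1 in every row, so it was not used. Depth is unknown.

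Everything else was computed in Python 3.11.15 (scipy 1.17.1, pandas 2.3.3, numpy 2.4.6; figures, matplotlib 3.10.9). Overlap meant at least 1 shared bp, and a gap counted the bases between the peaks. The overlap and gap code gave 0 differences from bedtools 2.31.1 on 800 simulated peaks. Locations, genes and start sites came from RefSeq tables of GRCm38.p6. All but 1 of the symbols in the 13 gene lists were found (Trac was not). With 1 list per group no test was made. Sequence content was read only in promoter windows, since no genome was used here.

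Genes were named by a rule: Bcl11b, Foxp3, Il2ra, Ctla4, Ikzf2 and Il10, the 10 genes with most members, the 10 pairs first in row order, gene-end pairs of listed genes, up to 3 genes per list, and the extreme gaps. The printed promoter windows, Alg9, the single marker genes, the bin edges of 150 and 250 bp and the genes in the closing observations were chosen after the values were seen. Members and lists were chosen with earlier results of these data known. Peaks set to 200 bp, other gap limits, the X chromosome, the first 50% of each list, other gene-end windows and other gene assignments were tried as alternatives. Some items are not reported here.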

Additional observations from a re-analysis of the deposited data

How the results depend on the processing

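Of 57 recomputed values, 33 stayed within the interval of the reported share or within 1.5 times the reported count, and 24 moved. The members' share of list-specific WT and KO peaks was 15.2% and 18.9% with a gap of at most 200 bp, 25.1% and 33.5% with at most 1000 bp, 20.8% and 28.4% with all peaks set to 200 bp, and 14.0% and 17.3% with at most 150 bp, a limit chosen after seeing the data. In the first 50% of each list the shares were 49.4% and 45.0%, from 959 WT and 1047 KO members and 674 pairs, where fewer peaks enter by construction. There alone the WT share was the higher one. KO members numbered 1560 with a gap of at most 150 bp. The gene-end share of WT and KO members was 50.2% and 53.6% in the first 50% of each list, 38.8% and 40.4% with gene ends reaching 2 kb, 24.9% and 24.96% with 500 bp, and 30.9% and 31.2% with a gap of at most 150 bp. For KO members it was 32.5% with at most 200 bp and 33.3% with at most 1000 bp. With touching peaks counted as 1 bp apart, also chosen after seeing the data, no value moved.

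No paired analysis was possible because each group has 1 list, and leaving out a replicate was not run for the same reason. The lists give no depth, so a peak missing from a list does not show closed chromatin.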

Other observations

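At some gene ends a pair was present and no peak was shared. Pairs with both peaks at a gene end fell to 514 genes, and 434 of these had no shared gene-end peak. Apart from Vim and Socs2, genes with 2 or more pairs and 0 shared peaks included Avl9, a gene of late secretory transport, and Dcun1d1, a gene of cullin neddylation, where 2 WT and 2 KO members were all the peaks of the gene. At Fmnl2, a formin gene, 2 WT and 2 KO members stood beside 3 WT and 11 KO peaks without a neighbour. These genes were chosen after their values were seen.

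By the same rule the X chromosome held 51 members among 396 list-specific WT peaks and 69 among 161 list-specific KO peaks, in 47 pairs. Of the miRNA hairpins in the RefSeq table, Mir6416, Mir7654, Mir449c and Mir3081 lay under a WT member, and no KO member lay on one.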
